A study of Mus musculus with 6 samples.

Results

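The genes described here carry out MHC class I antigen processing, the route by which cells turn their own proteins into peptides and show them at the surface. The 10 genes were chosen by symbol: Psmb8, Psmb9, Psmb10, Psme1, Psme2, Tap1, Tap2, Tapbp, B2m and Erap1. They were chosen with earlier results of these data known, so the shares of all genes printed beside their counts carry no test. Of these, 9 had a probe set carrying 1 gene symbol, and all 9 were among the 12919 genes tested. The only probe set listed for Psme2 also carries the symbol of a near-copy, Psme2b, so Psme2 has no value here.

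Expression was measured on 1-colour Affymetrix oligonucleotide arrays of the mouse genome in primary fibroblasts from embryos of ICR mice, an outbred strain, at embryonic day 15.5. HS+LPS cells were held at 42 °C for 1 h and then given lipopolysaccharide (LPS), a glycolipid of the bacterial outer membrane, here from E. coli, for 4 h. LPS cells were given the same LPS (1 μg/ml) for 4 h without the heat, and Control cells stayed at 37 °C untreated. The sample titles carry the numbers MEF1 and MEF2, read here as 2 cultures. Each number occurs once in each group, which made 6 arrays. That a number stands for the same culture in every group is a reading of the titles. Cells heated without LPS were not analysed here, so HS+LPS against LPS holds the effect of heat as well as its interplay with LPS. The cells are primary cultures grown from embryos, and in such bulk samples fewer cells of a type and less RNA per cell cannot be told apart.

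Class I molecules carry peptides of cytosolic proteins to the cell surface, where CD8 T cells inspect them. Proteins are cut by the proteasome, and interferon-induced cells swap its standard catalytic subunits for Psmb8, Psmb9 and Psmb10, forming the immunoproteasome. The activator built from Psme1 and Psme2 opens the ends of the proteasome core. The transporter made of Tap1 and Tap2 pumps peptides into the endoplasmic reticulum, where the aminopeptidase Erap1 trims them. Tapasin, encoded by Tapbp, bridges the transporter and the empty class I molecule, whose heavy chain is paired with B2m, the invariant light chain.

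Start-site windows were found for 9 of the 10 genes in RefSeq (GRCm38.p6), each reaching from 250 bases before the start to 50 bases after it. Psmb9, Tap1, Psmb8 and Tap2 are neighbours on chromosome 17, and Tap2 had no window. The 3 windows below are shown because they belong to the gene with the largest difference (Psmb8), to a pair with 1 common upstream region (Tap1 and Psmb9) and to the gene whose signal differed least between LPS and Control (B2m). Capitals mark letters that match a searched motif.
Psmb8: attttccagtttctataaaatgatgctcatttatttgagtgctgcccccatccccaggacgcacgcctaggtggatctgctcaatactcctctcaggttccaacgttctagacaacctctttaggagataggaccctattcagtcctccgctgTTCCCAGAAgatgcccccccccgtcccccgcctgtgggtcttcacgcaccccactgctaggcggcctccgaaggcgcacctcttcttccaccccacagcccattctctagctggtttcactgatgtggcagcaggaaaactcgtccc
Tap1: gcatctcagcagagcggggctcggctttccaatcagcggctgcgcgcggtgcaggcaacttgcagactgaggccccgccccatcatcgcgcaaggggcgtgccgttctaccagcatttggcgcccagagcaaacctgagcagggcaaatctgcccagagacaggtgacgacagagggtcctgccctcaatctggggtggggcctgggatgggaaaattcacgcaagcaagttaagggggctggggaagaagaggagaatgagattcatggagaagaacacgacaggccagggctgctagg
B2m: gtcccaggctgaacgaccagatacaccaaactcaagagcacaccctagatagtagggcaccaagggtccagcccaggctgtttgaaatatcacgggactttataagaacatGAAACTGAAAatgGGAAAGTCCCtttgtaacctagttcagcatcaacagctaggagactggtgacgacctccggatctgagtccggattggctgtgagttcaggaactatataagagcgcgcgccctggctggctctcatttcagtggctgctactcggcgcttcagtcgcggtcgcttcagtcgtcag
The Psmb8 window is chr17:34197945-34198244 on the plus strand, the Tap1 window chr17:34187306-34187605 on the plus strand, and the B2m window chr2:122147437-122147736 on the plus strand. Psmb9 is read from the minus strand in the opposite direction, and 275 of the 300 bases of its window are the same DNA as that of Tap1.

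Both strands were searched for 5 motifs. The core of the interferon-stimulated response element, GAAA, any 2 bases and GAAA, was found in the windows of Psme1, B2m and Erap1, and in 3.44% of all 32851 windows. TTCNNNGAA, the gamma-activated sequence bound by STAT dimers, was found in the Psmb8 window and in 8.3% of all windows. A kB site, GGG, any 3 bases and TTCC, was found in the B2m window and in 5.56% of all windows. The palindromic kB site of class I enhancers and the heat shock element (GAA, TTC and GAA, each 2 bases apart) were found in 0 of the 10 windows of these genes, of which Psme2 has 2, and in 0.107% and 0.603% of all windows. In B2m the response element core GAAACTGAAA starts 139 bases before the start site and the kB match GGAAAGTCCC 126 bases before it. The Psmb8 match TTCCCAGAA starts 97 bases before its start site. No 2 matches overlapped, and the matched letters say nothing of whether a factor was bound.

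Across all genes, array medians were 11.9 to 14.4 and the trimmed mean was 100.001 on every array. Genes marking fibroblasts were above the noise level, taken as the brightest of 27 bacterial probe sets on an array (6.0 to 7.67), for 10 of 10 markers on every array. Their summed signal was 27268 to 32314 in HS+LPS, 27523 to 31203 in LPS and 26121 to 35935 in Control. Macrophage and monocyte markers summed to 271 to 391 in HS+LPS, 239 to 437 in LPS and 266 to 479 in Control (10 genes, Itgam never above noise). Lymphocyte and dendritic markers summed to 45.7 to 56.6 in HS+LPS, 39.7 to 49.6 in LPS and 53.9 to 55.4 in Control, with Cd3e, Cd3g and Ncr1 never above noise. Endothelial markers summed to 67.5 to 102 in HS+LPS, 40.4 to 88.6 in LPS and 57.6 to 72.5 in Control. Epithelial markers summed to 96.2 to 134 in HS+LPS, 53.3 to 103 in LPS and 52.2 to 67.1 in Control. Among 27 markers tested, Pdgfrb fell in HS+LPS against LPS in limma without a culture term (adjusted p = 0.0277); with the culture as a block Pdgfra fell as well (limma adjusted p = 0.00729, and 0.74 without it) and Krt18, a keratin, rose (limma adjusted p = 0.0464, and 0.281 without it). In HS+LPS against Control Pdgfra (log2 difference -1.10, limma adjusted p = 0.0048 with the block and 0.739 without it) and Pdgfrb (-0.75, limma adjusted p = 0.00055 with the block and 0.0577 without it) fell too. The part of other cells in the results was not tested.

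LPS against Control asks which of these genes the bacterial stimulus induced. The signal of 7 of the 9 genes was higher on both LPS arrays than on either Control array; 13.1% of all genes tested did not overlap in this direction and 18.3% in the other. In 1 limma fit of the 3 groups with the culture as a block, Psmb8, Psmb10, Tap2 and Tapbp rose and 5 did not pass, at a Benjamini-Hochberg adjusted p under 0.05. Of all genes tested 2.05% rose and 0.72% fell by this rule. Without the culture term, which counts the difference between the 2 cultures as error, 0 of the 9 passed in limma, and 0.147% of all genes rose and 0% fell. At an unadjusted p under 0.05 in that fit 5 of the 9 were higher and 0 lower, as were 3.17% and 1.7% of all genes. The main design was the fit without the block, and the block was an alternative to it. Because each culture number occurs in every group, the fit with the block is given throughout, and the fit without it beside each gene that passed with the block. For the 9 genes, rose and fell refer to the fit with the block unless stated otherwise.

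**Figure D1:**
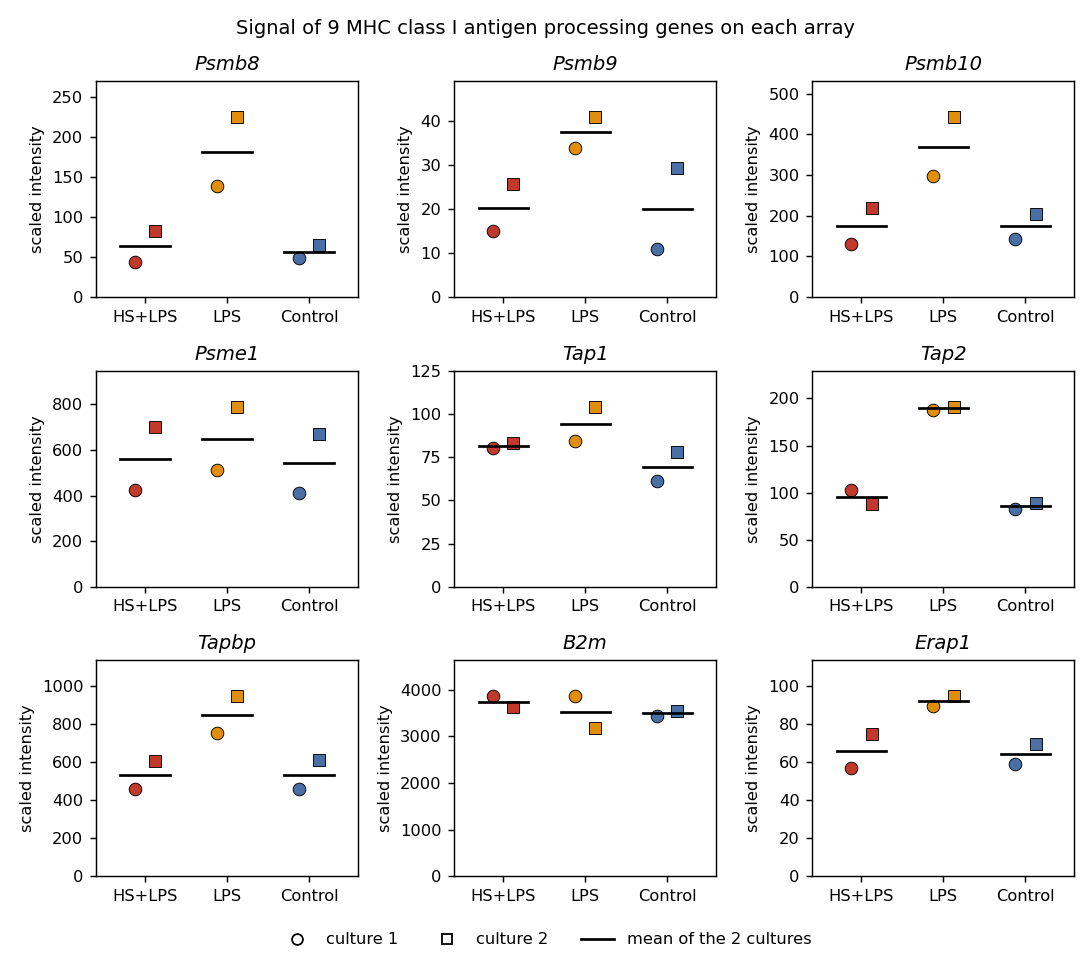
Scaled signal intensity (y axis, linear, from 0) of 9 genes on each array, with HS+LPS, LPS and Control along the x axis; circles are culture 1, squares culture 2 and bars their mean. Tap2 reads 188 and 191 in LPS, and 82.2 to 103 on the other 4 arrays, while B2m stays between 3185 and 3859.

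Of the immunoproteasome subunits Psmb8 and Psmb10 rose, and Psmb8 had the largest difference of the 9 genes. Psmb8, the chymotrypsin-like subunit also called LMP7, read 139 and 225 in LPS (cultures 1 and 2), against 48.9 and 64.9 in Control. Both LPS arrays lay above both Control arrays, and the log2 difference was 1.44 in culture 1 and 1.74 in culture 2. The mean was 182 ± 61 in LPS and 56.9 ± 11.3 in Control (SD, n = 2 each), a 3.02-fold rise (95% interval 2.36 to 3.86 with the block; limma adjusted p = 0.00088 with the block and 0.448 without it). Psmb8 ranked 86 of 12919 genes by its log2 difference. All fold changes are on the scale of intensity plus a pseudocount of 3.37, which understates changes of dim genes.

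Psmb10, the trypsin-like subunit MECL-1, read 298 and 442 in LPS, against 142 and 205 in Control. The groups did not overlap, and the cultures differed little in their response, with log2 differences of 1.05 and 1.10. The 2.10-fold rise had a 95% interval of 1.79 to 2.47 (limma adjusted p = 0.000783 with the block and 0.786 without it). Psmb9, the subunit LMP2, which takes the place of the caspase-like subunit Psmb6, read 34.0 and 41.0 in LPS, against 11.1 and 29.3 in Control. Its log2 difference was 1.37 in culture 1 and 0.44 in culture 2, and its 1.87-fold difference did not pass (adjusted p = 0.166 with the block and 0.999 without it).

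The standard subunits that these 3 replace, Psmb5, Psmb6 and Psmb7, did not pass. Psmb5, replaced by Psmb8, read 1152 and 1211 in LPS, against 1273 and 1244 in Control. Psmb6, replaced by Psmb9, read 850 and 1049 in LPS, against 901 and 1061 in Control, and Psmb7, replaced by Psmb10, 2616 and 2499 against 2728 and 2714. Their log2 differences were -0.09, -0.05 and -0.09 (limma adjusted p with the block 0.631, 0.812 and 0.58). Divided by Control of the same culture, Psmb8 was 2.84 and 3.47 in LPS where Psmb5 was 0.905 and 0.973; the difference between the paired genes was not tested.

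**Figure D2:**
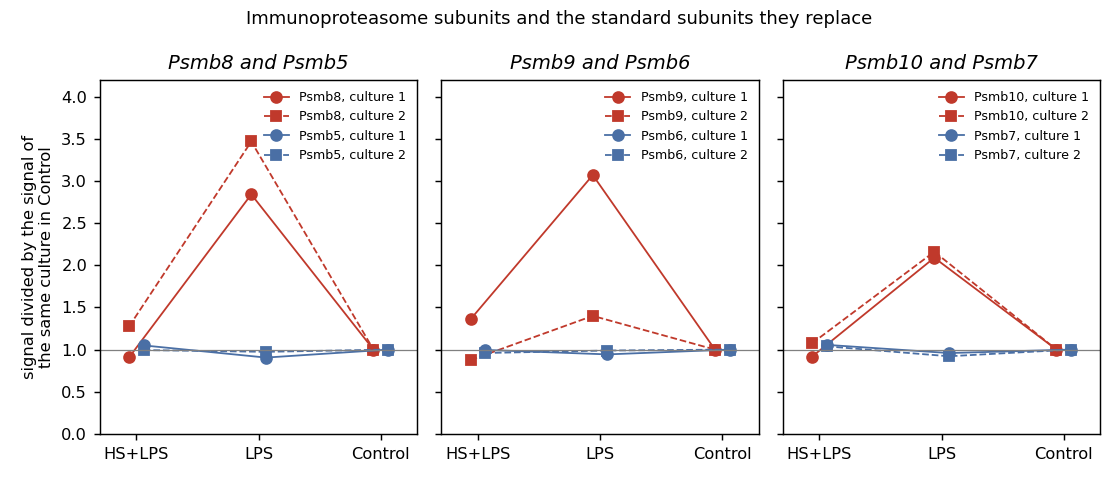
Signal divided by that of the same culture in Control (y axis, linear, from 0) for each immunoproteasome subunit (red) and the standard subunit it replaces (blue) in HS+LPS, LPS and Control; solid lines with circles are culture 1 and dashed lines with squares culture 2. In LPS Psmb10 sits at 2.09 and 2.16, and Psmb7 at 0.959 and 0.921.

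Of the transporter subunits, Tap2 rose and Tap1 did not pass. Tap2 read 188 and 191 in LPS, against 82.2 and 88.6 in Control, so that each LPS array was above each Control array. The 2.18-fold rise had a 95% interval of 1.77 to 2.68 (limma adjusted p = 0.00228 with the block and 0.102 without it). Tap1 read 84.5 and 104 in LPS, against 61.4 and 77.8 in Control. Its log2 differences of 0.44 and 0.41 in the 2 cultures were close to each other, and its 1.34-fold difference did not pass (adjusted p = 0.206 with the block). Tap1 and Psmb9 share the upstream region shown above, and neither passed in either fit.

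Tapbp, the loading bridge, rose 1.59-fold, with a 95% interval of 1.41 to 1.80 (limma adjusted p = 0.00197 with the block and 0.824 without it). It read 751 and 944 in LPS, against 456 and 610 in Control, without overlap. Its second probe set gave 176 and 234 in LPS, against 113 and 142 in Control, with log2 differences of 0.63 and 0.71 in the cultures. Erap1, the peptide trimmer, read 89.4 and 94.6 in LPS, against 59.2 and 69.5 in Control. These values do not overlap, and the 1.41-fold difference did not pass (adjusted p = 0.158 with the block). The second Erap1 probe set had a larger log2 difference, 0.76 in culture 1 and 1.40 in culture 2.

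Psme1 and B2m overlapped between the groups. Psme1, a subunit of the proteasome activator, read 510 and 790 in LPS, against 413 and 670 in Control. Within each culture it was higher in LPS, by 0.30 and 0.24 on the log2 scale, and did not pass (adjusted p = 0.137 with the block). B2m read 3857 and 3185 in LPS, against 3439 and 3552 in Control, higher in culture 1 and lower in culture 2. With a fold of 1.00 and a 95% interval of 0.876 to 1.15 (block), a B2m change as large as the 1.59-fold rise of Tapbp lay outside the interval. B2m was bright, with the highest signal of any array between 6931 and 8434, and whether signals near the top still rise in proportion was not tested.

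HS+LPS against LPS asks what a prior heat shock did to these genes, in the terms of the study's title, which speaks of inflammatory genes suppressed by heat. It shares the LPS arrays with the comparison above, so a chance high reading there would move both. Psmb8, Psmb10, Tap2 and Tapbp fell with the culture as a block, and 5 did not pass; of all genes tested 12.6% fell and 6.32% rose by this rule. Without the culture term 0 of 9 passed in limma, and 0.828% of all genes fell and 0.511% rose. At an unadjusted p under 0.05 in that fit 4 of the 9 were lower and 0 higher, as were 11.8% and 4.94% of all genes. Both HS+LPS arrays lay below both LPS arrays for 7 of the 9 genes, as they did for 28.8% of all genes, and 17.9% lay above.

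Psmb8 read 44.4 and 82.8 in HS+LPS, against 139 and 225 in LPS, a fall in both cultures (log2 differences -1.57 and -1.41). The ratio was 0.356, with a 95% interval of 0.278 to 0.456 (limma adjusted p = 0.00046 with the block and 0.125 without it). Psmb10 read 131 and 220 in HS+LPS, against 298 and 442 in LPS, at a ratio of 0.473 (0.402 to 0.556; adjusted p = 0.00028 with the block and 0.191 without it). Neither gene overlapped between the groups. Psmb9 read 15.1 and 25.7 in HS+LPS, against 34.0 and 41.0 in LPS, and did not pass (ratio 0.568, limma adjusted p of 0.0795 in the blocked fit).

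Of the peptide transporter, Tap2 fell and Tap1 did not pass. Tap2 read 103 and 87.6 in HS+LPS, against 188 and 191 in LPS, at a ratio of 0.509 (95% interval 0.413 to 0.627; limma adjusted p = 0.00182 with the block and 0.0524 without it). Tap1 read 80.4 and 83.1 in HS+LPS, against 84.5 and 104 in LPS. It was lower in both cultures (log2 differences -0.07 and -0.32) and did not pass (ratio 0.875, interval 0.694 to 1.10, adjusted p = 0.403 with the block). The 2 intervals do not overlap, and the difference between the genes was not tested.

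Tapbp read 459 and 607 in HS+LPS, against 751 and 944 in LPS, at a ratio of 0.628 (95% interval 0.556 to 0.709; limma adjusted p = 0.000756 with the block and 0.21 without it). Its second probe set read 108 and 156 in HS+LPS, against 176 and 234 in LPS. Erap1 read 57.2 and 75.0 in HS+LPS, against 89.4 and 94.6 in LPS, and did not pass (ratio 0.723, adjusted p = 0.0645 with the block). Psme1 read 424 and 701 in HS+LPS, against 510 and 790 in LPS (ratio 0.86, adjusted p = 0.0853 with the block). B2m read 3859 and 3634 in HS+LPS, against 3857 and 3185 in LPS, at a ratio of 1.07 (limma adjusted p of 0.478 in the blocked fit).

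**Figure D3:**
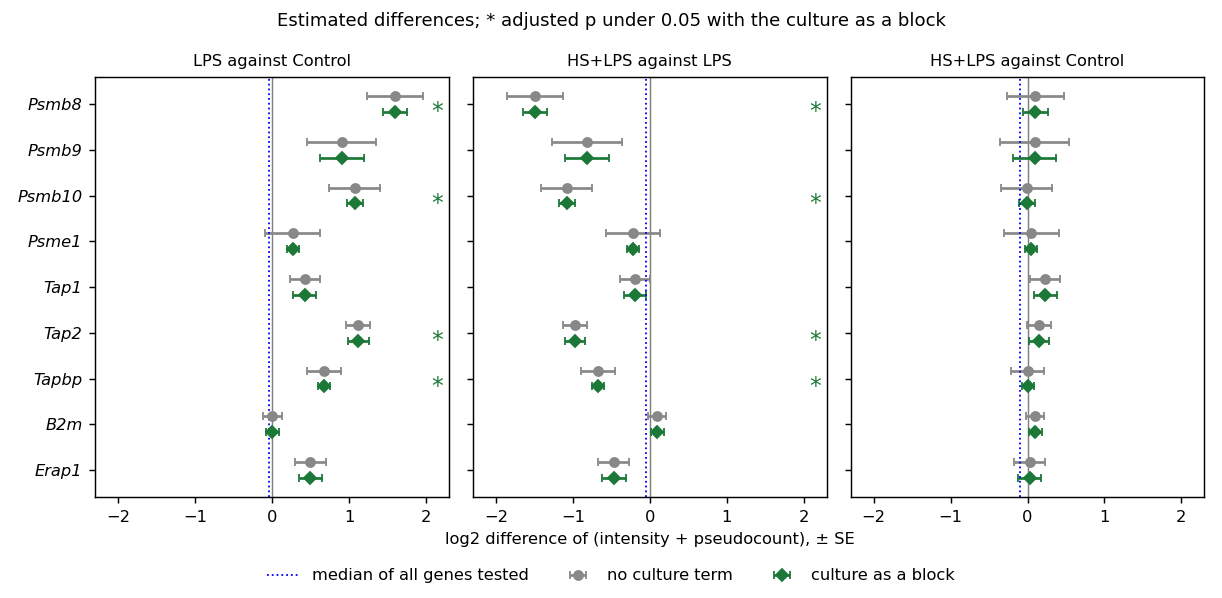
Log2 difference of intensity plus pseudocount (x axis, ± SE) for 9 genes in 3 comparisons; grey circles are the limma fit without a culture term, green diamonds the fit with the culture as a block, asterisks adjusted p under 0.05 with the block, and dotted lines the median of all genes tested. Psmb8, Psmb10, Tap2 and Tapbp have asterisks in the first 2 panels, and the third panel has none.

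HS+LPS against Control asks whether the heated, stimulated cells stood apart from untreated ones. In limma 0 of the 9 genes passed with the block or without it, where with the block 5.09% of all genes rose and 12.1% fell, and without it 0.17% rose and 0.00774% fell. At an unadjusted p under 0.05 without the block 0 of the 9 were higher or lower, against 4.48% higher and 11.7% lower among all genes. Psmb8 averaged 63.6 ± 27.1 in HS+LPS and 56.9 ± 11.3 in Control (SD, n = 2 each), at a ratio of 1.07 with an interval of 0.839 to 1.37. Psmb10 averaged 175 ± 63 in HS+LPS and 174 ± 44 in Control, and its interval of 0.844 to 1.17 lay below the 2.10-fold rise in LPS. Tapbp averaged 533 ± 105 in HS+LPS and 533 ± 109 in Control (interval 0.886 to 1.13). Tap2 read 103 and 87.6 in HS+LPS, against 82.2 and 88.6 in Control, overlapping (interval 0.90 to 1.37).

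Among all 9 genes the log2 differences from Control ran from -0.01 (Psmb10) to 0.23 (Tap1), with a median of 0.09, where all genes tested had a median of -0.09. Tap1 and B2m were the 2 genes with both HS+LPS arrays above both Control arrays, a pattern seen in 14.3% of all genes, with 31.1% lower. Tap1 read 80.4 and 83.1 in HS+LPS, against 61.4 and 77.8 in Control (log2 differences 0.37 and 0.09, adjusted p = 0.328 with the block). B2m read 3859 and 3634 in HS+LPS, against 3439 and 3552 in Control (adjusted p = 0.478 with the block). For Tap1 the order of group means was LPS, HS+LPS, Control, and no step of it passed in either fit.

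The 2 cultures differed in their level of these genes. Culture 2 read higher than culture 1 in all 3 groups for 7 of the 9 genes, and for 27.9% of all genes tested. Psme1 had a gap of 0.72 in HS+LPS, 0.63 in LPS and 0.69 in Control on the log2 scale, which was larger than its difference between any 2 groups. Psmb9 had the least even gap of the 9, 0.66 in HS+LPS, 0.25 in LPS and 1.18 in Control. B2m and Tap2 were the exceptions: Tap2 was lower in culture 2 in HS+LPS by 0.22, and B2m was lower in HS+LPS and in LPS. Within cultures, 8 of 9 genes were higher in LPS than in Control in both, against 24.7% of all genes, and 8 of 9 were lower in HS+LPS than in LPS in both, against 40.7% of all genes. As the genes were chosen with earlier results known, these shares only describe them.

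Probe sets beyond the brightest were checked for 5 genes. Of 16 probe sets with a single symbol of these genes, 12 passed the filter on dim signal. The other 4, 1 for Psmb8 and 3 for Tap1, averaged at most 7.85 in any group and are not read further. The second B2m probe set read 3531 and 2946 in LPS, against 3229 and 3504 in Control, overlapping like the first. The second Erap1 probe set read 13.9 and 25.3 in HS+LPS and 28.9 and 45.1 in LPS, against 15.6 and 15.0 in Control, so HS+LPS lay below LPS on both.

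The list of class I and class I-like heavy chains had 11 of 22 genes on the array with a symbol of their own. Of these, 6 passed the filter on dim signal and were tested: H2-K1, H2-D1, H2-M3, H2-T3, Cd1d1 and Mr1. The class I-like genes Cd1d1 and Mr1, as well as H2-T3, did not pass in any comparison with the block. With the block 1 rose and 0 fell in LPS against Control (median log2 difference 0.28, all genes -0.05), and 0 rose and 3 fell in HS+LPS against LPS (median -0.37, all genes -0.05). Of all genes 2.05% rose and 0.72% fell with the block in the first, and 6.32% rose and 12.6% fell in the second. Without the block limma passed 0 in either. At an unadjusted p under 0.05 in that fit 0 of the 6 were higher or lower in the first, against 3.17% and 1.7% of all genes. In the second 0 were higher and 1 was lower, against 4.94% and 11.8% of all genes. H2-K1, a classical heavy chain, read 848 and 1100 in LPS, against 577 and 785 in Control, a 1.43-fold rise (limma adjusted p = 0.00788 with the block and 0.999 without it). In HS+LPS it read 579 and 813, at a ratio to LPS of 0.712 (adjusted p = 0.00325 with the block and 0.372 without it). H2-D1, the other classical heavy chain tested, read 788 and 623 in HS+LPS, against 932 and 899 in LPS (adjusted p = 0.0214 with the block and 0.335 without it). H2-M3, which presents formylated peptides, read 34.3 and 46.2 in HS+LPS, against 57.3 and 77.8 in LPS (adjusted p = 0.0206 with the block and 0.28 without it). Some of the listed heavy chain genes are near-identical to one another, so their probe sets can share signal.

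Most general folding and loading factors did not pass. Of 9 tested, 1 rose in LPS against Control with the block (median log2 difference 0.03), where 2.05% of all genes did. In HS+LPS against LPS 2 rose and 1 fell with the block (median 0.14), where 6.32% and 12.6% of all genes did. Without the block limma passed 0 in both. At an unadjusted p under 0.05 in that fit 1 was higher in the first, as were 3.17% of all genes. In the second 2 were higher and 1 lower, as were 4.94% and 11.8% of all genes. The gene that moved both ways was Tapbpl, a relative of tapasin that edits peptides. It read 77.6 and 115 in LPS, against 39.9 and 45.9 in Control, a 2.12-fold rise (limma adjusted p = 0.0135 with the block and 0.501 without it). In HS+LPS it read 30.4 and 39.99, at a ratio to LPS of 0.391 (adjusted p = 0.00147 with the block and 0.0795 without it). Calreticulin (Calr) and calnexin (Canx), the lectin chaperones of the loading complex, had log2 differences of -0.03 and 0.03 in LPS against Control, and of 0.10 and 0.14 in HS+LPS against LPS. Pdia3, the disulfide isomerase bound to tapasin, rose in HS+LPS against LPS by 0.23 on the log2 scale (limma adjusted p = 0.048 with the block and 0.306 without it). Sec61b, a subunit of the translocon, rose there by 0.28 (limma adjusted p = 0.0238 with the block and 0.298 without it). After quantile normalization, with the block, neither passed: Pdia3 gave 0.058 (limma adjusted p = 0.434) and Sec61b 0.13 (limma adjusted p = 0.123). With median centring Pdia3 did not pass either (limma adjusted p = 0.0639).

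Few genes of the rest of the proteasome passed. With the block 2.05% of all genes rose and 0.72% fell in LPS against Control. In HS+LPS against LPS 6.32% rose and 12.6% fell. Of 16 other core subunits and assembly factors, 1 rose in LPS against Control with the block (Psma6, by 0.41 on the log2 scale, limma adjusted p = 0.0166, and 0.912 without the block) and 1 rose in HS+LPS against LPS (Psmb2, by 0.29, adjusted p = 0.0271, and 0.234 without the block), with medians of -0.02 and 0.07. Of 20 regulatory cap genes, 0 passed in LPS against Control (0 at an unadjusted p under 0.05) and 2 rose in HS+LPS against LPS (Psmc3 by 0.25 and Psmd13 by 0.31, adjusted p = 0.0398 and 0.048, and 0.288 and 0.346 without the block), with medians of -0.03 and 0.15. Without the block limma passed 0 of the genes of either list in either comparison. At an unadjusted p under 0.05 in that fit 1 was higher in the first and 2 in the second, as were 3.17% and 4.94% of all genes. With the block and median centring Psmb2, Psmc3 and Psmd13 did not pass in HS+LPS against LPS (limma adjusted p = 0.0779, 0.102 and 0.0876), nor did Psmc3 and Psmd13 after quantile normalization (limma adjusted p = 0.108 and 0.0629). In the other direction, Psma6 fell there with the block after quantile normalization (log2 difference -0.22, limma adjusted p = 0.0408). Without that scaling it gave -0.065 (limma adjusted p = 0.556 with the block). Psme3, the nuclear relative of Psme1, read 242 and 172 in HS+LPS and 237 and 241 in LPS, against 231 and 193 in Control, and did not pass. Among 8 other peptidases that trim or destroy peptides, and 7 class II pathway genes, 0 passed in either comparison with or without the block (limma; 0 at an unadjusted p under 0.05). The class II genes, which mark professional antigen presenting cells, summed to 154 to 158 in HS+LPS, 158 to 186 in LPS and 167 to 194 in Control over 10 genes.

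**Figure D4:**
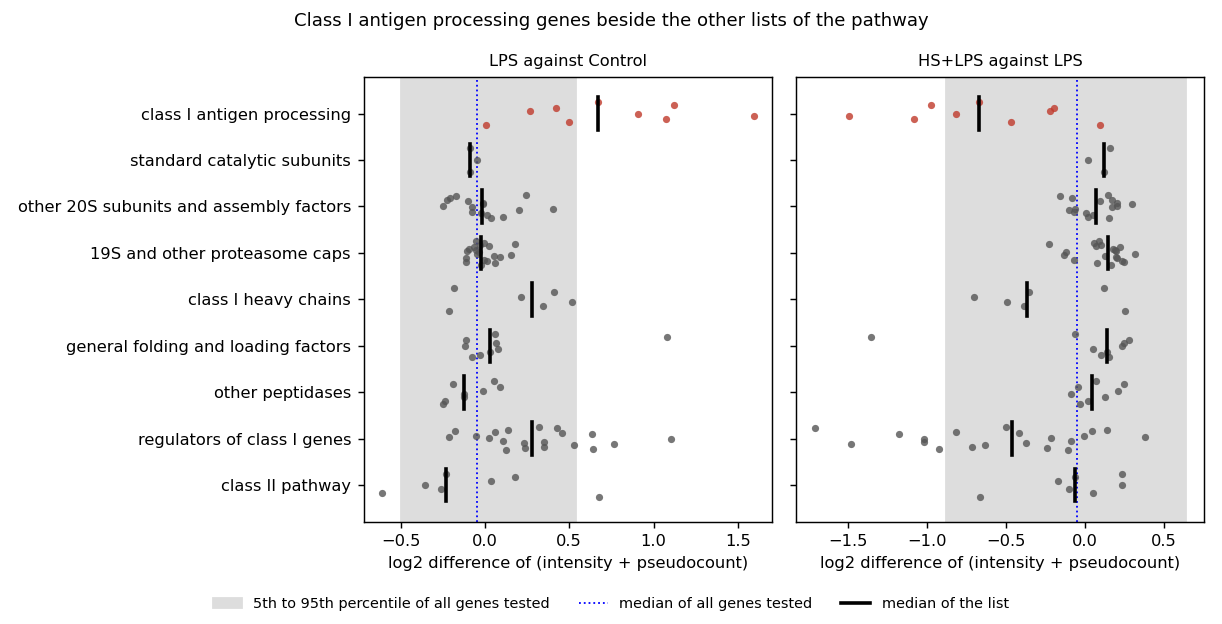
Log2 difference of intensity plus pseudocount (x axis) for each tested gene of 9 lists in LPS against Control and HS+LPS against LPS; red points are the class I antigen processing genes, grey points the other lists, black bars list medians, the grey band the 5th to 95th percentile of all genes and the dotted line their median. The median of the 9 genes is 0.67 on the left and -0.67 on the right.

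Regulators of class I genes were tested for 20 of 23 listed symbols. With the block 4 rose in LPS against Control (median log2 difference 0.28), where 2.05% of all genes did. In HS+LPS against LPS 10 fell and 1 rose with the block (median -0.46), where 12.6% and 6.32% of all genes did. Without the block 0 passed in the first (5 higher at an unadjusted p under 0.05, and 3.17% of all genes). In the second 2 fell without the block, where 0.828% of all genes did. These were Stat2, which carries type I interferon signals to the nucleus, and Ifnar1, a chain of the type I interferon receptor. Stat2 read 24.97 and 20.4 in HS+LPS, against 88.3 and 75.1 in LPS (ratio 0.306, limma adjusted p = 0.000444 with the block and 0.0248 without it). Ifnar1 read 173 and 164 in HS+LPS, against 302 and 343 in LPS (ratio 0.527, adjusted p = 0.000684 with the block and 0.0441 without it). Nlrc5, the transactivator of class I genes, read 13.04 and 13.2 in HS+LPS, against 38.9 and 29.6 in LPS (ratio 0.442, adjusted p = 0.0157 with the block and 0.106 without it). Jak2, a kinase of interferon receptors, read 149 and 161 in HS+LPS and 289 and 349 in LPS, against 132 and 162 in Control. It rose by 1.10 on the log2 scale in LPS against Control and fell in HS+LPS to 0.494 of LPS (limma adjusted p = 0.000744 and 0.00042 with the block, 0.147 and 0.0587 without it). Rela, an NF-kB subunit, and Ifnar1 also rose in LPS against Control with the block, by 0.46 and 0.64 on the log2 scale (limma adjusted p = 0.0221 and 0.0133, and 0.968 and 0.364 without the block).

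Irf1, an interferon regulatory factor that acts on class I pathway promoters, read 100.04 and 120.2 in HS+LPS and 270 and 358 in LPS, against 148 and 223 in Control. It rose in LPS against Control and fell in HS+LPS against LPS (limma adjusted p = 0.00885 and 0.000103 with the block, 0.828 and 0.0599 without it). It was lower in HS+LPS than in Control as well (log2 difference -0.71, limma adjusted p = 0.00473 with the block and 0.248 without it). Stat2 read 60.1 and 59.2 in Control, and its difference from Control was -1.28 in HS+LPS (adjusted p = 0.00256 with the block and 0.0754 without it). In that comparison 4 of the 20 regulators fell with the block, where 12.1% of all genes and 0 of the 9 antigen processing genes did. Irf9 (-0.66) and Rfx5 (-0.75) were among the 4 (limma adjusted p = 0.0132 and 0.00903, and 0.157 and 0.126 without the block). The difference between the lists was not tested.

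Each gene except B2m correlated positively with the others over the 6 arrays. This measure takes in the gap between the cultures as well as the differences between the groups. The correlation of a gene's log2 signal with the mean standardised profile of the other 8, over the 6 arrays, was 0.66 for Psme1, 0.79 for Tap2, 0.86 for Tap1, and 0.94 to 0.97 for Psmb8, Psmb9, Psmb10, Erap1 and Tapbp. For B2m it was -0.39. The 5 other genes whose profile was most like the mean of all 9 were Vegfc (r = 0.98), Trp53rka (0.98), Olr1 (0.98), Rhbdf2 (0.98) and Gbp6 (0.97). Vegfc, a lymphatic growth factor, read 91.1 and 177 in HS+LPS and 230 and 321 in LPS, against 87.1 and 160 in Control. The 6 arrays share groups and cultures, so these correlations describe the profiles and carry no test.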

How the data were processed

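The authors deposited 1 linear signal intensity per probe set and array; the software behind it is not given in the sources used here. The trimmed mean (2% off each end) of every array was 100.001. Of 45101 probe sets, the platform annotation paired 34958 with 1 gene symbol and 932 with several, and 9211 had none listed. To each value 3.37 was added, the 25th percentile over the whole table, before taking log2. A filter removed the dimmest probe sets, up to the 40th percentile by mean log2 signal, and the brightest remaining probe set with 1 symbol stood for its gene (12919 genes). No further normalization was added, as array medians differed by at most 1.21 times.

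Groups were compared in 1 fit with limma 3.58.1 (R 4.3.3; lmFit, eBayes with trend), calling genes at an adjusted p (Benjamini-Hochberg, all genes) under 0.05. The main design had no block. The fit with the culture as a block is printed beside it because the sample titles carry the numbers MEF1 and MEF2, read as 2 cultures. Across genes, residuals around group means correlated within a culture at 0.54 between HS+LPS and LPS, 0.57 between HS+LPS and Control and 0.62 between LPS and Control. The median standard error was 0.15 with the block and 0.23 without it. P-values rest on 2 cultures, whose number limits the precision. No array dates were used.

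The genes and lists were chosen with earlier results of these data known. Values are given for the pathway genes, for called genes of each list (up to 4 per comparison), for a set of further pathway genes and for the 5 genes of most similar profile. H2-T23 and Lnpep had no probe set with that symbol alone. The fits were run on simulated data, where only the median estimated differences were required to lie close to the set ones. That run does not show how many calls in these data are false. Alternatives covered pseudocount, filter, scaling, probe set rule, trend, block and leaving out each array.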

Additional observations from a re-analysis of the deposited data

How the results depend on the processing

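With the culture as a replicate block, 4 of the 9 genes rose in LPS against Control and 4 fell in HS+LPS against LPS, where the fit without it called 0. The block called 4 and 4 with quantile normalization, 4 and 5 with median centring (Psmb9 fell, adjusted p = 0.0445) and 4 and 4 with the second brightest probe set; with each array left out 4 to 6 rose (6 without HS+LPS array 1) and 4 fell. These combined fits were chosen after seeing the data. Psmb8, Psmb10, Tap2 and Tapbp passed in each of them. Without the block, Tap2 alone fell in HS+LPS against LPS with a pseudocount of 16 and with the filter at the 60th percentile (1 gene each, adjusted p = 0.0479 and 0.0486), and 0 passed with any array left out. In HS+LPS against Control 0 passed under any alternative. No value that changed sign passed. B2m in LPS against Control gave -0.00074 with median centring, -0.028 with the mean of probe sets and -0.061 with the second probe set. Quantile normalization gave B2m -0.082 in HS+LPS against LPS and, in HS+LPS against Control, B2m -0.0097, Psmb10 0.077 and Tapbp -0.011; median centring gave Tapbp -0.0057 there. Adding the block left the values with quantile normalization, median centring and the second probe set the same. Leaving out each array without the block gave ranges that cross 0. In LPS against Control these were -0.13 to 0.14 for B2m and -0.077 to 0.62 for Psme1. In HS+LPS against LPS these were -0.043 to 0.23 for B2m and -0.58 to 0.14 for Psme1. In HS+LPS against Control these were -0.16 to 0.21 for Erap1, -0.38 to 0.36 for Psmb10, -0.32 to 0.53 for Psmb8, -0.50 to 0.68 for Psmb9, -0.31 to 0.41 for Psme1 and -0.21 to 0.21 for Tapbp. With the block, sign changes were in LPS against Control B2m, -0.11 without Control array 1 and -0.12 without LPS array 1; in HS+LPS against LPS B2m, -0.033 without LPS array 2; in HS+LPS against Control B2m, -0.014 without Control array 1, Erap1, -0.083 without HS+LPS array 2, Psmb10, 0.060 without Control array 1 and 0.090 without HS+LPS array 1, Psmb8, -0.088 without Control array 2 and -0.055 without HS+LPS array 2, Psmb9, -0.27 without Control array 1 and Tapbp, -0.025 without Control array 1 and -0.014 without HS+LPS array 2. Over all genes, LPS against Control called 19, 0 to 4 without 1 array, 5 to 25 under other settings and 358 with the block. HS+LPS against LPS called 173, 8 to 76, 84 to 200 and 2443, and HS+LPS against Control 23, 8 to 14, 13 to 59 and 2219. The blocked counts behind the shares of all genes also moved by over 1.5 times. In LPS against Control they were 216 without Control array 1, 177 without Control array 2, 169 without LPS array 1, 191 without LPS array 2, 1000 without HS+LPS array 1 and 1007 without HS+LPS array 2. In HS+LPS against LPS they were 1312 without LPS array 1 and 783 without LPS array 2 (783 to 2920 over all 6 arrays), and in HS+LPS against Control 1063 without Control array 1 and 556 without Control array 2 (556 to 2895). The causes of these changes were not tested.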
